A study of Rattus norvegicus with 12 samples.

Results

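The striata of 4 rats that the labels call non-addicted were compared with those of 4 rats kept for 24 h of abstinence (MA24) by RNA sequencing. Both groups had 16 days of methamphetamine (MA) self-administration, both carried the wild-type genotype label, and the whole striatum of 1 rat gave 1 library. All genes with a mean count above 4 over these 8 libraries were taken, which were 12640 of the 17337 genes in the count table. The labels give neither the rule by which a rat was called non-addicted nor the time at which its striatum was collected, and the paper's text does not describe these rats. The study used adult male Sprague-Dawley rats, and a further 4 rats had 12 h of abstinence (MA12); their levels are given beside some results. Every MA24 rat has a number that ends in N and no non-addicted rat has one, so whatever N stands for cannot be told apart from the group in these 8 rats. The MA12 group holds 2 rats of each kind, 21 and 31 without N and 4N and 7N with it.

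The striatum is the input station of the basal ganglia. Most of its neurons are GABAergic projection neurons that receive dopamine and glutamate, and MA acts on the dopamine terminals among them. Bulk tissue also carries RNA from capillaries with their pericytes, from oligodendrocytes that wrap the fibre bundles of the internal capsule, and from the ciliated ependymal cells and neural stem cells of the adjoining lateral ventricle wall.

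The 8 libraries held 19043710 to 23850284 counts, and a two-sided exact permutation test of these totals gave p = 0.629, where the smallest p that 4 against 4 allows is 0.0286. The 10 most abundant genes took 4.49% to 5.6% of a library in non-addicted rats and 5.82% to 6.26% in MA24 rats, without overlap. In MA12 rats 21 and 31 they took 4.65% and 4.59%, and in 4N and 7N 5.97% and 5.37%. Markers of the striatum were abundant in every library: *Ppp1r1b*, which encodes DARPP-32, had at least 138409 counts and *Drd2*, the D2 dopamine receptor, at least 8422. No pair of libraries within a group was alike to within sampling noise, with a chi-square per degree of freedom of 9.64 to 23.8 over the 12 pairs. Some libraries stood apart in transcripts of neighbouring tissue. *Ttr*, the transthyretin of the choroid plexus, had 329 counts in non-addicted rat 9, 17 in rat 12 and at most 6 in each of the other 6 libraries. *Avp*, the hypothalamic vasopressin gene, had 181 counts in non-addicted rat 11 and at most 11 in the other 7.

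Of the 10744 genes left after a filter on variance, 49 were DEGs between non-addicted and MA24 rats (FDR below 0.05 and FC of at least 1.5, edgeR quasi-likelihood test), which is 0.456% of the genes tested. Of these, 35 were higher and 14 lower in non-addicted rats, and for 41 of the 49 the 2 groups did not overlap, as was the case for 9.41% of all 12640 genes. The DEGs were chosen on the same values, so their larger share is no further support for them. The higher DEGs included genes of motile cilia, and the lower ones included endothelial genes. The DEG count rested on the filter and on single rats. The count of 49 was obtained with variance ranked on TMM-scaled log2 CPM, a scale chosen after DEG counts had been seen; ranked on unscaled log2 CPM the filter left 16 DEGs, and ranked on raw counts 0 (2098 genes at an unadjusted p below 0.05, edgeR). Without the variance filter, edgeR called 0 of the 12640 genes at this FDR, with 2229 genes (17.6%) at an unadjusted p below 0.05, while DESeq2 called 151 of them. The adjusted p of the 49 genes was then 0.0669 to 0.104, and all 49 kept their sign. Leaving out 1 rat gave 0 DEGs without non-addicted rat 12 (1211 genes at an unadjusted p below 0.05), 3 without rat 11, 89 without rat 9 and 187 without rat 13. On the MA24 side it gave 1 without 15N, 6 without 16N, 30 without 9N and 77 without 14N.

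**Figure D1:**
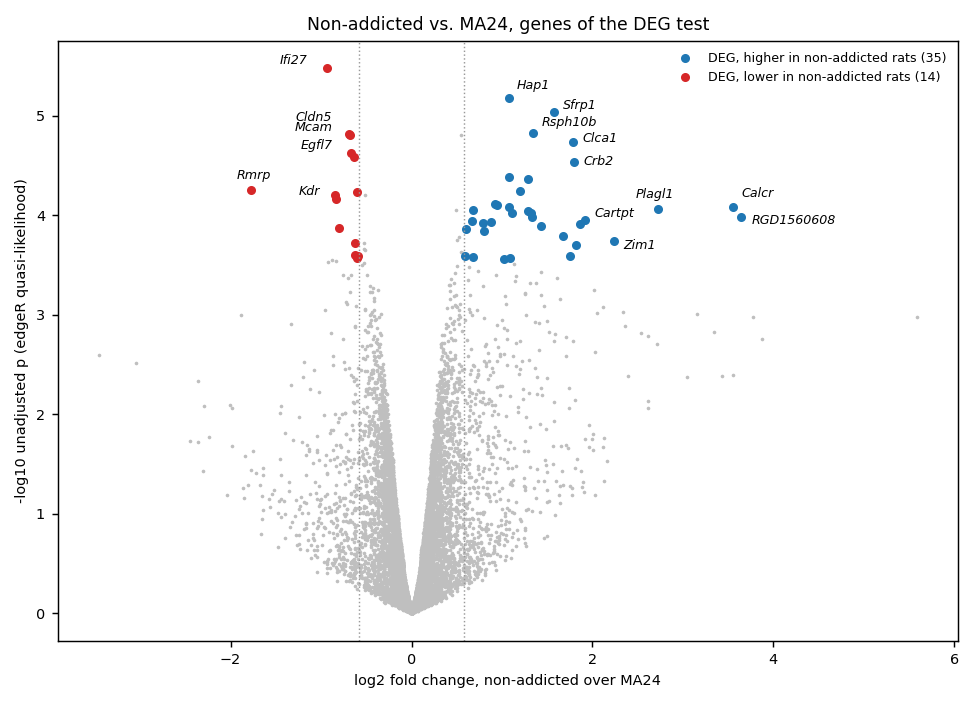
Each point is 1 of the 10744 genes of the DEG test, with the log2 fold change (non-addicted over MA24) on the x axis and the -log10 of the unadjusted edgeR p on the y axis. The dotted lines mark an FC of 1.5; the 35 higher DEGs reach a log2FC of 3.64 (*RGD1560608*), and the 14 lower ones lie between -0.59 and -1.77 (*Rmrp*).

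**Figure D2:**
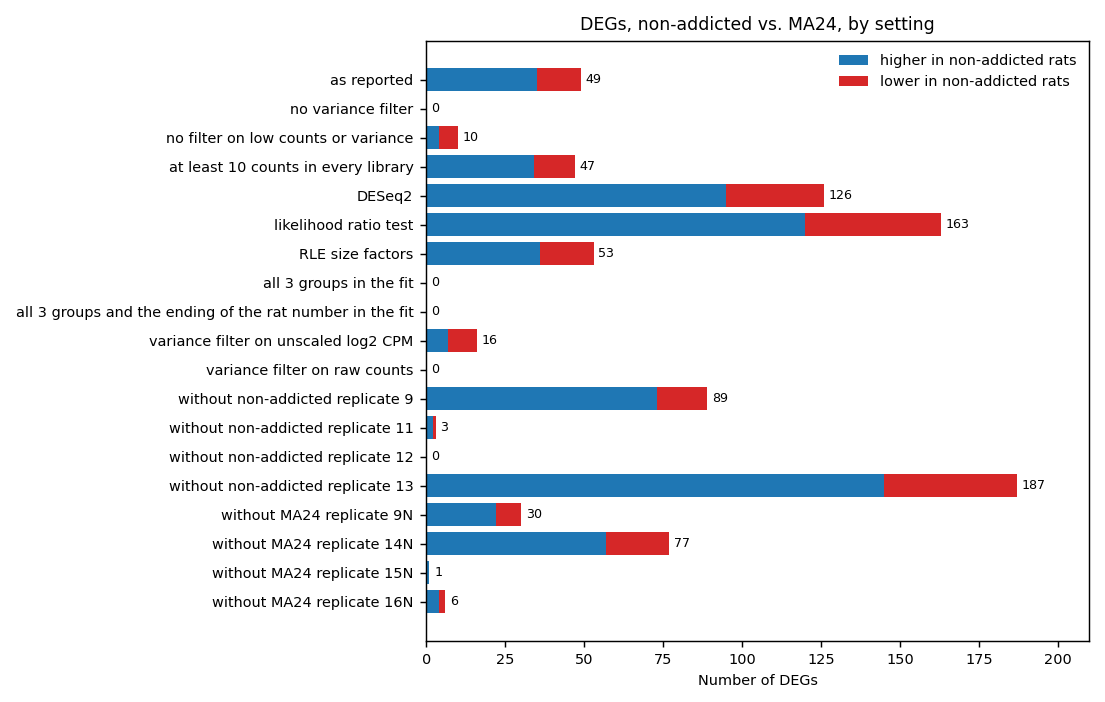
Bars give the number of DEGs (x axis) for the setting as reported and for each alternative (y axis), split into genes higher and lower in non-addicted rats. The count of 49 falls to 0 without the variance filter or without non-addicted rat 12, and reaches 187 without non-addicted rat 13.

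The rats were not alike within the non-addicted group. Rat 13 had the lowest level of the 4 for 30 of the 35 higher DEGs and the highest for 10 of the 14 lower ones, and for 8 of the 35 its level lay within or below the MA24 range. The higher DEGs also parted the MA12 rats by the kind of number. For 31 of the 35, both MA12 rats without N were above both with N, whereas this held for 20.8% of all 12640 genes. For the 14 lower DEGs, both rats without N were above in 2 and below in 0, against 20.8% and 19.2% of all genes. A fit by edgeR of all 12 rats took the ending of the number as a term, which the mixed MA12 group allows. It gave 0 DEGs between non-addicted and MA24 rats, and 522 of 10744 genes had an unadjusted p below 0.05. The MA12 rats alone set this term, so the group difference was estimated less precisely. Counts of genes past a limit could therefore fall in this fit without a smaller log2FC. In that fit, which was added after the data were seen, 14 of the 49 DEGs took the other sign, all of them from the 35 higher ones. Without the term, the fit of all 12 rats also gave 0 DEGs, with 2066 genes at an unadjusted p below 0.05.

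Endothelial genes, which line the vessel wall, were lower in non-addicted rats. In bulk samples, fewer cells of a type and less RNA per cell cannot be told apart. *Cldn5* encodes the tight junction claudin of the blood-brain barrier. It had 2844, 3211, 3621 and 3922 counts in non-addicted rats 9, 11, 12 and 13, and 5530, 6120, 4506 and 5393 in MA24 rats 9N, 14N, 15N and 16N. The groups were apart, and the log2FC was -0.68 ± 0.12 (SE, adjusted p = 0.0241, edgeR). *Kdr*, the main VEGF receptor of endothelial cells, had 157, 181, 294 and 240 counts against 478, 323, 440 and 302. All 4 non-addicted rats lay below all 4 MA24 rats on the normalised scale, with a log2FC of -0.85 ± 0.17 (adjusted p = 0.0354, edgeR). *Egfl7*, a matrix protein that endothelial cells secrete, fell by 0.67 ± 0.12 on the log2 scale, from 711 to 876 counts in MA24 rats to 418 to 605. *Car4*, a carbonic anhydrase of the capillary surface, fell by 0.83 ± 0.16.

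Of 30 endothelial genes listed, 27 were above the count limit, and all 27 had a log2FC below 0, with a median of -0.34. Of these, 18 had an unadjusted p below 0.05 in that direction, against 8.12% of all genes, and 9 had groups that did not overlap, against 4.5% of all genes. Among those short of the DEG limits were *Nos3*, the endothelial nitric oxide synthase (-0.51 ± 0.13), the angiopoietin receptor *Tek* (-0.43 ± 0.11), its relative *Tie1* (-0.38 ± 0.09) and the transcription factor *Sox18* (-0.68 ± 0.17). The summed level of the list was 1120 to 1490 CPM (counts scaled to library size) in non-addicted rats and 1456 to 1736 in MA24 rats, and rat 13 was the highest of the non-addicted rats. Without any 1 rat, 13 to 21 of the 27 were below an unadjusted p of 0.05. With the ending of the rat number as a term it was 7, and the median log2FC was -0.28.

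Pericytes and smooth muscle cells, which ensheath the endothelium, had lower levels as well. All 16 of their genes had a log2FC below 0, with a median of -0.40. Of these, 11 had an unadjusted p below 0.05 and 7 had groups apart, against 8.12% and 4.5% of all genes, although 0 were DEGs. *Vtn*, the vitronectin gene that marks brain pericytes, had 441, 478, 561 and 470 counts against 598, 757, 651 and 603 (-0.45 ± 0.11). *Pdgfrb*, the pericyte receptor for PDGF-B, had a log2FC of -0.33 ± 0.10 and *Tagln*, an actin-binding protein of smooth muscle, one of -0.42 ± 0.13. In MA12 rats the summed level of the list was 269.1 to 450.7 CPM, against 270.5 to 318 in MA24 and 199.8 to 256.6 in non-addicted rats. Under the fit with the number ending, 7 of 16 had an unadjusted p below 0.05 and the median log2FC was -0.54.

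Other lower DEGs were not on the cell type lists. *Mcam*, a cell adhesion molecule of endothelial and mural cells, had 801, 813, 849 and 729 counts in non-addicted rats and 1769, 1080, 1268 and 1031 in MA24 rats (log2FC -0.69 ± 0.12, adjusted p = 0.0241, edgeR). In the MA12 rats it had 1861, 1820, 1786 and 944. *Pdgfb*, the endothelial ligand of the pericyte receptor, fell by 0.59 ± 0.13, and *Slc22a8*, an organic anion transporter of the blood-brain barrier and choroid plexus, by 0.63 ± 0.14. *Egflam*, which encodes the matrix protein pikachurin, fell by 0.80 ± 0.17 and *Adamts4*, a matrix protease, by 0.62 ± 0.14. *Pdgfb* and *Adamts4* are named here after their values were seen, as are *Srgn*, a proteoglycan of granules (-0.60 ± 0.12), and *Lgals9*, a galectin (-0.60 ± 0.14). Of 18 fibroblast and matrix genes, 15 had a log2FC below 0, with a median of -0.27. An unadjusted p below 0.05 downwards was met by 5 (27.8%, against 8.12% of all genes). With the number ending in the fit the median was 0.09. *Ptgds*, the prostaglandin D synthase made by leptomeninges and oligodendrocytes, had a log2FC of -0.36 ± 0.06 with groups apart, below the fold limit.

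Myelin genes were also lower in non-addicted rats. *Mbp*, the myelin basic protein gene, passed the FDR after the variance filter but not the fold limit (log2FC -0.53 ± 0.11, adjusted p = 0.0443, edgeR). It had 156730 to 199943 counts against 218216 to 292704. Without that filter no gene passed the FDR by edgeR. All 19 genes of the myelinating oligodendrocyte list had a log2FC below 0, with a median of -0.36. Of these, 15 had an unadjusted p below 0.05 and 6 had groups apart, against 8.12% and 4.5% of all genes. *Gjb1*, the connexin 32 gene, had a log2FC of -0.48 ± 0.10, *Hapln2*, a link protein of nodes of Ranvier, -0.53 ± 0.12, and *Mag*, the myelin-associated glycoprotein, -0.42 ± 0.11. The summed level was 13460 to 18760 CPM in non-addicted, 19250 to 23150 in MA24 and 14280 to 23520 in MA12 rats. Of the 10 oligodendrocyte precursor genes, 6 were below 0 (median -0.15). With the number ending in the fit, 0 of the 19 myelin genes had an unadjusted p below 0.05 by edgeR, and the median was -0.10.

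**Figure D3:**
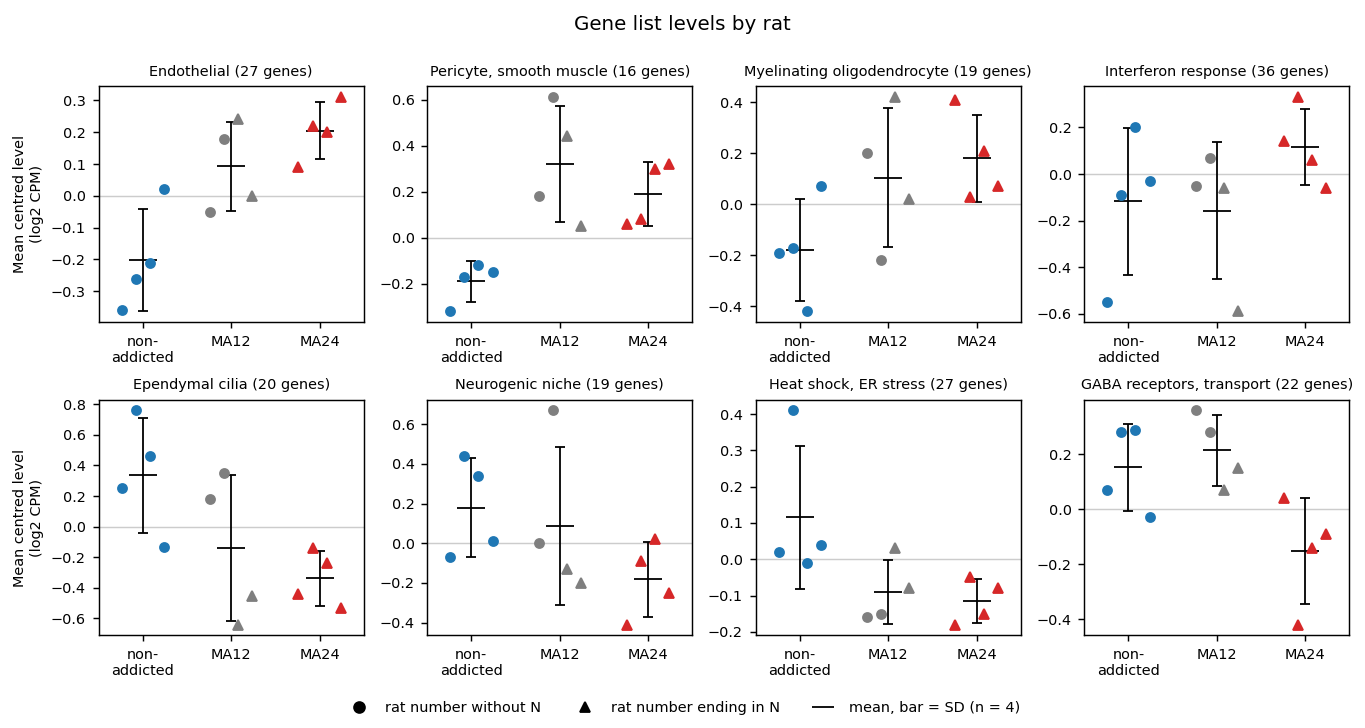
Each point is 1 rat, and the y axis gives the mean over a list's genes of log2 CPM after centring each gene on the 8 non-addicted and MA24 rats. Horizontal marks and bars are the mean and SD of 4 rats; endothelial and pericyte levels are lower in non-addicted rats, whereas ciliary levels are high in non-addicted rats 9, 11 and 12 and MA12 rats 21 and 31, and low in the other 7.

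*Ifi27*, an interferon-induced gene of mitochondria, was the DEG with the lowest unadjusted p. It had 786, 988, 1183 and 1009 counts in non-addicted rats and 1399, 2236, 1986 and 1735 in MA24 rats, and the groups were apart (log2FC -0.94 ± 0.14, adjusted p = 0.0241, edgeR). In MA12 rats it had 1917, 1184, 1060 and 755. It was the only DEG of its list. Of 36 genes of the interferon response and antigen presentation, 10 were above 0 and 26 below (median -0.12). An unadjusted p below 0.05 was met by 5, all lower (13.9%, against 8.12% of all genes). These 5 held the class I genes *RT1-A1* (-0.91 ± 0.22) and *RT1-CE10* (-0.88 ± 0.31), whose reads can be shared with close paralogs, and *Psmb10*, a subunit of the immunoproteasome (-0.37 ± 0.11). *Isg15*, the interferon-induced ubiquitin-like gene, had 26 to 55 counts against 42 to 71, with overlapping groups.

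Because interferon-induced genes share a response element, their promoters were searched. RefSeq promoters (build GRCr8, 250 bases before to 50 after the start) were matched by symbol for 9526 of the 12640 genes. The letters GAAA, any 2 bases and GAAA again, on either strand, were in 16 of 29 matched promoters of the list and in 2.8% of all 9526. The 250 bases before the start of *Ifi27* (chr6:128355062-128355311 on the plus strand) are shown since it is the list's DEG, with both matches, 169 and 84 bases before the start at their first base, in capitals.
*Ifi27*: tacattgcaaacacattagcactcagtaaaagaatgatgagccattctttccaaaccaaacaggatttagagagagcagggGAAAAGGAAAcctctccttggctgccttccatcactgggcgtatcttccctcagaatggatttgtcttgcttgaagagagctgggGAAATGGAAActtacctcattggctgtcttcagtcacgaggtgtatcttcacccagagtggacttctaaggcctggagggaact

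*Rmrp*, the RNA of the RNase MRP complex that acts in ribosomal RNA processing, had the largest fall of the 14. It had 48, 13, 34 and 23 counts against 153, 73, 93 and 85 (log2FC -1.77 ± 0.34, adjusted p = 0.0354, edgeR). All non-addicted rats were below all MA24 rats, and the 4 MA12 rats had 63 to 107 counts. It is short and not polyadenylated, while the libraries were made by poly-A capture. Among 40 small nucleolar host genes and non-coding RNAs, 21 were above 0, the median log2FC was 0.03 and *Rmrp* was the only one of them at an unadjusted p below 0.05 in its direction.

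On the other side, genes of motile cilia were higher in non-addicted rats. *Foxj1*, the transcription factor that drives motile ciliogenesis, had 464, 1096, 938 and 395 counts in rats 9, 11, 12 and 13 against 344, 394, 309 and 279 in MA24 rats. The levels did not overlap after normalisation, although rat 13 was close to the MA24 rats, and the log2FC was 1.08 ± 0.22 (adjusted p = 0.0354, edgeR). *Rsph1*, a radial spoke protein, had 192, 266, 262 and 119 counts against 88, 99, 109 and 59 (1.20 ± 0.23, adjusted p = 0.0354, edgeR). *Rsph10b*, another spoke protein, rose by 1.34 ± 0.23 and *Dnah1*, an axonemal dynein heavy chain, by 1.29 ± 0.26. *Tp73*, the p53 relative required for multiciliated cells, rose by 1.32 ± 0.27. *Dnali1*, *Enkur* and *Spef2*, named after their values were seen and all linked to the axoneme, rose by 0.95 ± 0.19, 0.92 ± 0.18 and 1.75 ± 0.39, the last from 43, 67, 76 and 38 counts against 17, 11, 27 and 9.

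Of the 20 ependymal cilia genes measured of 37 listed, 19 had a log2FC above 0, with a median of 0.70. An unadjusted p below 0.05 was met by 11, against 9.51% of all genes, and 2 had groups apart, against 4.91%. The second list, of axonemal dyneins and cilia- and flagella-associated proteins, which shares genes with the first, had 14 of 16 above 0, a median of 0.56 and 7 at an unadjusted p below 0.05. Rat 13 lay nearest to the MA24 rats in the ependymal list, with a mean centred level of -0.13 against -0.53 to -0.14. In the second list rat 13 lay below all MA24 rats, at -0.39 against -0.34 to -0.11. The summed level of the ependymal list was 194.4, 272.5 and 235.3 CPM in rats 9, 11 and 12 and 131.4 in rat 13, against 101.2 to 144.9 in MA24 rats. In MA12 rats 21 and 31 it was 184.1 and 216.1, and in 4N and 7N it was 94.37 and 112.6. For 18 of the 20 genes both MA12 rats without N were above both with N. With the number ending in the fit, 0 of the 20 had an unadjusted p below 0.05 in that direction by edgeR, and the median log2FC was -0.14, the other sign. Among the DEGs, *Rsph1* (-0.12), *Dnah1* (-0.37), *Tp73* (-0.01), *Dnali1* (-0.03) and *Enkur* (-0.21) also had the other sign there.

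Ciliary genes carry sites for RFX factors, whose first arm reads GTTGCC. These 6 letters, on either strand, were in 7 of 15 matched promoters of the ependymal list and in 12.8% of all 9526, and in 4 of 26 of those of the higher DEGs (15.4%). *Tekt1*, a tektin of the axonemal microtubules, had 229, 275, 251 and 114 counts against 153, 168, 102 and 129 (0.63 ± 0.23, not a DEG). Its promoter (chr10:57479122-57479371 on the minus strand) is shown as an example of the list, with the match in capitals 39 bases before the start.
*Tekt1*: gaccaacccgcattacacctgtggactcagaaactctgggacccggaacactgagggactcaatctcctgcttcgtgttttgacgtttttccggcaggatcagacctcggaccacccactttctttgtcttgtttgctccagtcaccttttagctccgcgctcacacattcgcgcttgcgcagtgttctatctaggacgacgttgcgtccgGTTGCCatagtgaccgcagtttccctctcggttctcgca

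Of 19 genes of the neurogenic niche beside the ventricle, 16 were above 0 (median log2FC 0.30). An unadjusted p below 0.05 in that direction was met by 8 (42.1%, against 9.51% of all genes). *Top2a*, a topoisomerase of dividing cells, had 44, 127, 121 and 109 counts against 25, 38, 52 and 28 (1.44 ± 0.35). *Dlx2*, a transcription factor of GABAergic progenitors, had a log2FC of 0.82 ± 0.23 with groups apart, and *Dcx*, the doublecortin of migrating neuroblasts, 0.84 ± 0.27 with overlap. *Nes*, the nestin gene, which endothelial cells also express, went the other way (-0.75 ± 0.20, groups apart). None of the 19 was a DEG. *Sfrp1*, a secreted Wnt inhibitor, rose by 1.57 ± 0.26 (117, 192, 191 and 82 counts against 64, 52, 34 and 42, adjusted p = 0.0241, edgeR), *Crb2*, an apical polarity protein, by 1.80 ± 0.33, and *Smoc2*, a secreted calcium-binding matrix protein, by 1.43 ± 0.30. In *Crb2*, rats 11 and 12 had 206 and 207 counts and rats 9 and 13 had 78 and 59, against 35 to 43 in MA24 rats. With the number ending in the fit, 1 of the 19 niche genes had an unadjusted p below 0.05 and the median was -0.18. Of 9 choroid plexus genes, 7 were above 0. *Clic6* and *Folr1*, a chloride channel protein and a folate receptor of that epithelium, had 36 to 89 and 58 to 152 counts against 13 to 31 and 20 to 61, while *Ttr* was high in rat 9 alone. The median of the 9 was 1.08, and -0.02 with the number ending in the fit.

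Other higher DEGs encode a potassium channel, a calcium pump and a huntingtin-associated protein. *Kcnj6*, the GIRK2 potassium channel, had 108, 343, 170 and 52 counts against 61, 49, 41 and 31 (log2FC 1.86 ± 0.39, adjusted p = 0.0364, edgeR). Rat 11 was highest and rat 13 was close to the MA24 rats. *Atp2b4*, a plasma membrane calcium pump, had 388, 973, 680 and 356 counts against 354, 114, 268 and 200 (1.33 ± 0.27). *Hap1*, the huntingtin-associated protein abundant in the hypothalamus and septum, had 4001, 5485, 4590 and 2166 counts against 2340, 1561, 1883 and 1751 (1.08 ± 0.18, adjusted p = 0.0241, edgeR). Its MA12 counts were 4417 and 5041 without N and 1659 and 1366 with N. With the number ending in the fit, *Hap1* had a log2FC of -0.25.

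**Figure D4:**
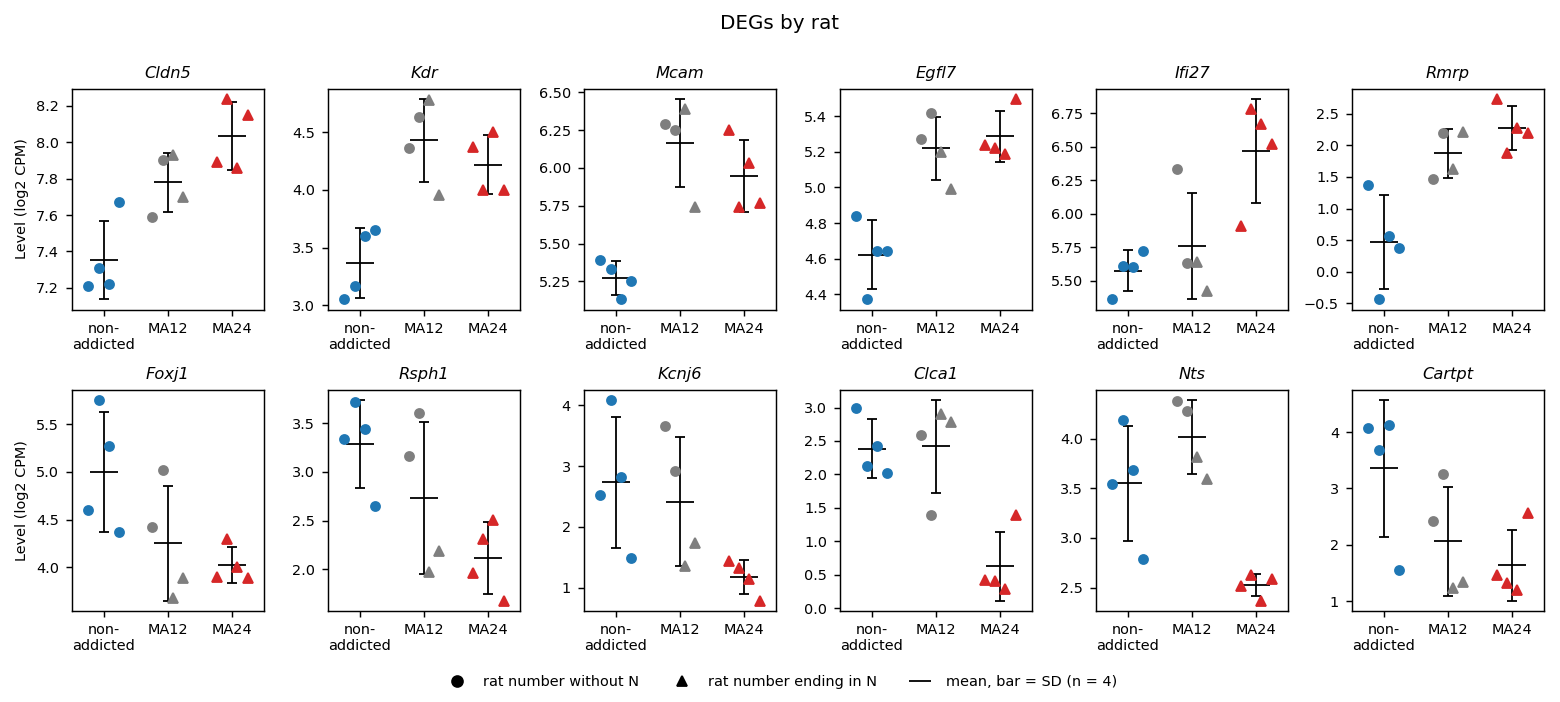
Each point is 1 rat and the y axis gives log2 CPM for 12 of the 49 DEGs, with the mean and SD of 4 rats per group. *Foxj1*, *Rsph1*, *Kcnj6* and *Cartpt* are low in non-addicted rat 13 and in the MA12 rats whose number ends in N, whereas all 4 MA12 rats lie above the MA24 mean for *Nts*.

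*Cartpt*, the gene of the CART peptide and the only DEG among the 11 key genes of the study, had 320, 257, 422 and 55 counts in non-addicted rats and 62, 49, 43 and 110 in MA24 rats. Rats 9, 11 and 12 were above all MA24 rats, rat 13 was within their range, and the log2FC was 1.92 ± 0.40 (adjusted p = 0.0363, edgeR). *Nts*, the neurotensin gene, had 221, 367, 311 and 131 counts against 131, 124, 99 and 112 (1.11 ± 0.23, adjusted p = 0.0354, edgeR). Here all 4 MA12 rats, with 494, 462, 299 and 212 counts, were above the MA24 rats. *Clca1*, a secreted regulator of chloride conductance, had 151, 86, 128 and 76 counts against 29, 25, 22 and 48 (1.79 ± 0.32, adjusted p = 0.0245, edgeR), and in MA12 rats 141, 61, 158 and 121. *Plcxd3*, a phospholipase-like protein, rose by 1.29 ± 0.25. In the 26 neuropeptide and opioid genes, 13 were above 0, 6 had an unadjusted p below 0.05 upwards and 4 downwards. These are 23.1% and 15.4%, against 9.51% and 8.12% of all genes. *Penk*, the enkephalin precursor of indirect pathway neurons, had a log2FC of -0.20 ± 0.07 with groups apart.

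The DEGs with the largest fold changes had few counts in MA24 rats and are named after their values were seen. *Calcr*, the calcitonin receptor, had 132, 81, 44 and 10 counts against 14, 0, 3 and 6, and MA12 rats 21 and 31 had 170 and 32. *RGD1560608* had 52, 263, 119 and 5 counts against 5, 2, 10 and 16. *Plagl1* and *Zim1*, both imprinted genes of zinc finger proteins, had 17 to 67 and 21 to 112 counts against 2 to 12 and 9 to 19. *Vsnl1*, *Rasal1*, *Camk1g*, *Zfhx4*, *Zcchc12*, *Rgs17*, *Map9*, *Mbnl1*, *Igfbp5*, *Dgkg*, *Prc1* and *Vwa5b1* were further ones, with log2FCs of 0.59 to 1.67. Of 17 marker genes of thalamus, hypothalamus and septum, 11 were above 0 (median 0.48). An unadjusted p below 0.05 was met by 4 upwards and 2 downwards (23.5% and 11.8%, against 9.51% and 8.12% of all genes). *Pmch*, *Sim1* and *Otp* had 0 counts in all 8 libraries. *Zic1*, a transcription factor of septum and thalamus, had 280, 859, 535 and 240 counts against 237, 205, 180 and 316, and 808 and 704 in MA12 rats 21 and 31 against 256 and 196 in 4N and 7N. The summed level of this list was 196.5 CPM in rat 11, 79.45 to 114.9 in the other non-addicted rats and 77.54 to 96.56 in MA24 rats, and with the number ending in the fit the median log2FC was -0.38. The part of neighbouring tissue in the higher DEGs was not tested.

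Chaperones of the heat shock and endoplasmic reticulum (ER) stress responses were higher in non-addicted rats without a DEG among them. Of 27 genes, 23 were above 0 (median log2FC 0.23), 12 had an unadjusted p below 0.05 in that direction and 10 had groups apart, against 9.51% and 4.91% of all genes. *Hspa5*, the ER chaperone BiP, had 7132, 11359, 9008 and 7242 counts against 6030, 5828, 4991 and 6074. All non-addicted rats were above all MA24 rats, and the log2FC was 0.57 ± 0.13, just short of the FC limit. *Hspa5* passed the FDR after the variance filter (adjusted p = 0.0497, edgeR), whereas without that filter no gene did by edgeR. *Hsp90b1*, the ER form of HSP90, had a log2FC of 0.27 ± 0.07, *Creld2*, a secreted ER stress protein, 0.34 ± 0.11, *Herpud1*, which acts in ER-associated degradation, 0.29 ± 0.09, and *Dnaja1*, a cytosolic HSP40, 0.23 ± 0.07, each with groups apart. *Hspa1b*, the inducible HSP70, had 20, 88, 41 and 27 counts against 22, 19, 11 and 14. Rat 11 had the highest mean level of the list, and without it 9 of the 27 had an unadjusted p below 0.05.

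The chaperones parted the MA12 rats by the kind of number in the direction opposite to the ciliary genes. In MA12, both rats without N were above both with N for 1 of the 27 genes and below for 13 (48.1%, against 19.2% of all genes), and with the number ending in the fit 11 of 27 had an unadjusted p below 0.05 upwards and the median log2FC was 0.33. ER chaperone genes are induced through the ER stress element, which reads CCAAT, any 9 bases and CCACG. On either strand it was in the promoters of *Hspa5*, *Hsp90b1*, *Creld2*, *Xbp1* and *Calr*, which are 5 of 21 matched genes of the list, and in 16 of all 9526 (0.168%). The letters GAA, TTC and GAA of a heat shock element, with any 2 bases between them, were in 5 others, *Dnaja1*, *Hspa8*, *Hspd1*, *Hspe1* and *Hsph1*, and in 0.514% of all. The 250 bases before the start are shown for the 3 of the first set whose groups did not overlap, *Hspa5* (chr3:38452766-38453015 on the plus strand), *Hsp90b1* (chr7:23012294-23012543 on the minus strand) and *Creld2* (chr7:121789134-121789383 on the plus strand), with the ER stress element in capitals. In *Creld2* and the second of the matches in *Hsp90b1* it lies on the other strand.
*Hspa5*: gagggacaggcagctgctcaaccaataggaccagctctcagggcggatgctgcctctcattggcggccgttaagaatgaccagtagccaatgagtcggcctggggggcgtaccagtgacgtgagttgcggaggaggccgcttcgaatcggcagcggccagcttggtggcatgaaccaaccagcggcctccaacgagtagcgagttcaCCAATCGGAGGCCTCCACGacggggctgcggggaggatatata
*Hsp90b1*: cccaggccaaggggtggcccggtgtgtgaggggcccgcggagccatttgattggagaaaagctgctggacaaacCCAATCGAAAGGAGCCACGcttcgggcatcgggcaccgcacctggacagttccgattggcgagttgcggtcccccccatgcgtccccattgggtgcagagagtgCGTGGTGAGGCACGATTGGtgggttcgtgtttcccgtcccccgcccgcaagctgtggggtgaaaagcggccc
*Creld2*: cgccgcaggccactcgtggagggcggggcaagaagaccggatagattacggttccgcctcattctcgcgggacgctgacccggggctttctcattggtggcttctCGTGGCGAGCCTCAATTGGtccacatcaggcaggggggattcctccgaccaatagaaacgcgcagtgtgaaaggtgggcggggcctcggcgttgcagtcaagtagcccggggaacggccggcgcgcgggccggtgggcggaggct

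A log2FC above 0 was found for 50.5% of all genes, and an unadjusted p below 0.05 upwards for 9.51%. Of 22 genes of GABA receptors, synthesis and transport, 18 were above 0 (median 0.26) and 11 had an unadjusted p below 0.05, all upwards. *Gabra2*, a GABA-A receptor alpha subunit, had 1578, 1334, 1916 and 1309 counts against 1347, 1125, 1125 and 825 (0.46 ± 0.11, groups apart). Of 31 postsynaptic scaffold and adhesion genes, 22 were above 0 (median 0.18) and 10 had an unadjusted p below 0.05 upwards, among them *Homer1* (0.29 ± 0.07), a scaffold of metabotropic glutamate receptors, and the adhesion molecule *Nlgn1* (0.35 ± 0.09). The scaffold *Dlgap3* had a log2FC of -0.36 ± 0.14. Of 33 synaptic vesicle release genes, 25 were above 0, led by *Syt4*, a synaptotagmin (0.35 ± 0.07). Glutamate receptors had 18 of 25 above 0 (*Gria2*, 0.28 ± 0.08), protocadherins 40 of 48, potassium channel subunits 47 of 80 and calcium and sodium channel subunits 22 of 41. MA24 rat 14N was the lowest of the 8 in the GABA, postsynaptic, vesicle, glutamate receptor and protocadherin lists. Without it, 5 postsynaptic genes had an unadjusted p below 0.05, as against 10 with it, and without non-addicted rat 12 it was 6. With the number ending in the fit, 1 of the 22 GABA genes and 1 of the 31 postsynaptic genes did.

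In the respiratory chain, 70 of 75 oxidative phosphorylation subunits had a log2FC below 0, with a median of -0.12. Of the 75, 17 had an unadjusted p below 0.05 downwards and 9 had groups apart. Over all genes, 8.12% had such a p downwards and 4.5% had groups apart in that direction. *Uqcr11*, a subunit of complex III, had 11756, 10859, 12058 and 11368 counts against 14396, 14488, 12743 and 13728 (-0.28 ± 0.08). Of 83 cytosolic ribosomal protein genes, 77 were below 0 (median -0.13), 17 had an unadjusted p below 0.05 and 0 had groups apart. Of 67 mitochondrial ribosomal protein genes, 51 were below 0 (median -0.07). Both counts of 17 rested on single rats. For oxidative phosphorylation the count was 9 without non-addicted rat 11, 6 without rat 12, 7 without MA24 rat 14N and 7 without 16N. For the ribosome it was 9, 5, 8 and 5 in the same order, and 37 without MA24 rat 9N.

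These lists also differ in gene length, and the difference between the groups moved with it over all genes. Genomic span was taken from RefSeq (GRCr8) for 12476 genes (98.7%), which were put in 5 equal bins. The median log2FC was -0.10 in the shortest bin (up to 7901 bases), -0.05, 0.00 and 0.05 in the next ones and 0.11 in the longest (from 72357 bases). The share of genes with an unadjusted p below 0.05 upwards went from 4.57% in the shortest to 19.1% in the longest bin, and the share downwards from 15.6% to 2.61%. The median centred level in the longest bin was -0.02, 0.09, 0.10 and 0.07 in non-addicted rats 9, 11, 12 and 13. In MA24 rats 9N, 14N, 15N and 16N it was 0.02, -0.13, -0.02 and -0.07. The shortest bin had 0.01, -0.06, -0.08 and -0.04 against 0.00, 0.10, 0.02 and 0.09, in the same order. Rat 9 lay within the MA24 range in both bins. The median span was 82752 bases for the GABA list and 115854 for the postsynaptic list, and 7637 and 3126 for oxidative phosphorylation and ribosomal genes. It was 5648 bases for the chaperone list, 39057 for the endothelial list and 37541 for the ependymal cilia list, against 23684 over all genes. The shortest bin held 78 of the 83 ribosomal genes, 40 of the 75 oxidative phosphorylation genes and 17 of the 27 chaperone genes. The longest bin held 19 of the 31 postsynaptic genes and 12 of the 22 GABA genes. Endothelial and ependymal cilia genes were found in all 5 bins. The part of gene length in the list differences was not tested.

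**Figure D5:**
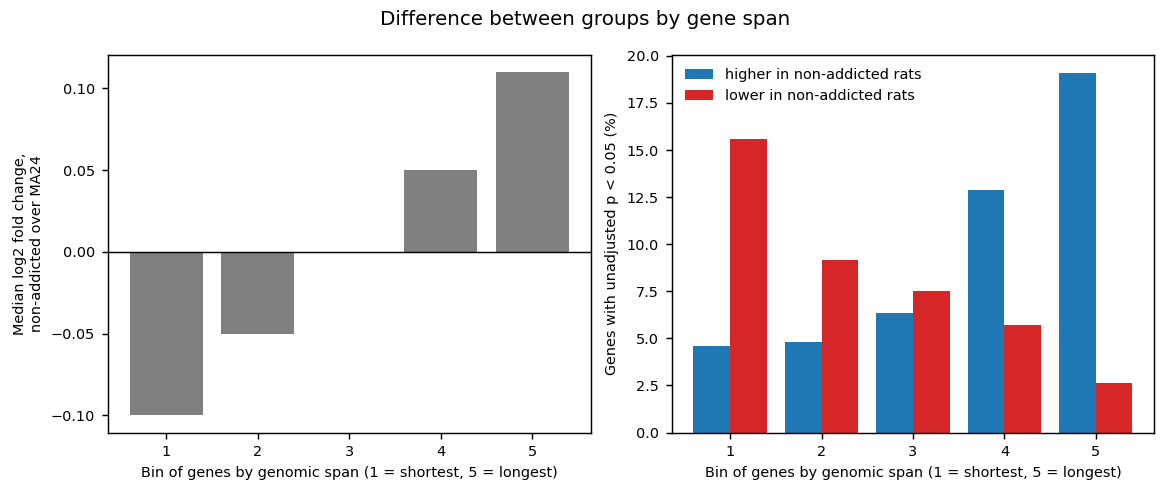
The genes are in 5 equal bins by genomic span (x axis); the left panel gives the median log2FC, non-addicted over MA24, and the right panel the percentage of genes with an unadjusted p below 0.05 in each direction. The median runs from -0.10 in the shortest to 0.11 in the longest bin.

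Of 18 shared projection neuron genes of the striatum, 7 were above 0 (median -0.10), 5 had an unadjusted p below 0.05 downwards (27.8%, against 8.12% of all genes) and 2 upwards, with *Rgs9*, a regulator of dopamine receptor signalling, at -0.29 ± 0.08 with groups apart and the transcription factor *Foxp2* at 0.28 ± 0.09 with groups apart. *Ppp1r1b* had 138409 to 160645 counts against 157910 to 203294 (-0.28 ± 0.09). The direct pathway list had 5 of 10 above 0 (median 0.01) and 1 at an unadjusted p below 0.05 in each direction. This is near the shares of all genes, 9.51% upwards and 8.12% downwards. The indirect pathway list had 4 of 10 above 0 (median -0.02) and 2 at an unadjusted p below 0.05, both downwards and with groups apart, where *Adora2a*, an adenosine receptor, had -0.17 ± 0.07. *Drd1* had a log2FC of 0.12 ± 0.08, and 9 of 20 striatal interneuron genes were above 0 (median -0.06). In dopamine and cAMP signalling, 20 of 32 were above 0 (median 0.07), with *Gnai1*, an inhibitory G protein, at 0.39 ± 0.10 and *Slc18a2*, the vesicular monoamine transporter, at 0.80 ± 0.28. None of these genes was a DEG.

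Of 30 immediate early genes, 17 were above 0 (median 0.04), 4 had an unadjusted p below 0.05 upwards and 3 downwards. Of all genes, 9.51% had such a p upwards and 8.12% downwards, which is near the shares in this list. *Fos* had 53, 223, 94 and 393 counts against 93, 245, 163 and 56, and the groups overlapped. *Fosb*, the gene of an AP-1 transcription factor subunit, had 284, 450, 486 and 420 counts against 403, 269, 279 and 235 (0.46 ± 0.15). Of 20 glucocorticoid-induced genes, 16 were above 0 (median 0.18) and 4 had an unadjusted p below 0.05 upwards, with *Tsc22d3* at 0.37 ± 0.12. Of 16 clock genes, 11 were above 0 (median 0.05), with *Bhlhe40* at 0.34 ± 0.10 with groups apart. Cholesterol and fatty acid synthesis had 24 of 29 below 0 (median -0.14) and 9 at an unadjusted p below 0.05 downwards, such as *Msmo1*, a sterol oxidase (-0.25 ± 0.08); with the number ending in the fit the median was 0.10.

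The study's gene sets were looked at last. Of its 11 key genes, which it chose with MA12 and MA24 rats among its samples, so that they are not independent evidence, 9 were above 0 (median 0.47), and besides *Cartpt* 4 had unadjusted p-values below 0.05: *Bcl2* (0.98 ± 0.37), *Grin2a* (0.52 ± 0.22), *Creb1* (0.55 ± 0.24) and *Agt* (-0.31 ± 0.11). Of the 957 addiction-related genes the study lists, 859 were measured and 446 were above 0 (median 0.01). An unadjusted p below 0.05 was met by 107 upwards and 99 downwards, 12.5% and 11.5% against 9.51% and 8.12% of all genes, and 6 were DEGs: *Cartpt*, *Hap1*, *Rasal1*, *Sfrp1* and *Vsnl1* upwards and *Cldn5* downwards.

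The other lists are given in brief. The median log2FC was -0.09 for 19 astrocyte genes, -0.13 for 23 microglia and macrophage genes with 6 at an unadjusted p below 0.05 downwards (26.1%, against 8.12% of all genes), and 0.08 for 12 cortical excitatory neuron genes. Of 7 blood cell genes, 6 were above 0 (median 0.30) and 2 had an unadjusted p below 0.05 upwards (28.6%, against 9.51%). Of these, *S100a8* and *S100a9*, the calgranulins of neutrophils, had 5 to 12 and 20 to 39 counts against 0 to 1 and 5 to 17, while haemoglobin (*Hbb*) had a log2FC of -0.01. The median was 0.05 for 175 C2H2 zinc finger genes with 109 above 0, 0.08 for 105 splicing factors and RNA-binding proteins with 75 above 0 and 16 at an unadjusted p below 0.05 upwards (*Mbnl1* was a DEG), 0.09 for 60 axon guidance genes and 0.04 for 43 Wnt genes. It was 0.06 for 38 TGF-beta, BMP and SMAD genes, 0.03 for 51 histone and DNA methylation enzymes, -0.06 for 22 histone genes, 0.00 for 38 proteasome subunits, -0.18 for 32 collagens and laminins and -0.03 for 280 solute carriers.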

How the data were processed

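RNA from the striatum of 12 rats was sequenced by the authors after poly-A capture with a kit that does not mark strand. The study's methods name cutadapt for trimming, STAR for alignment to the rn6 build and featureCounts for gene counts; the submitters' processing notes give cutadapt 1.18, STAR 2.7.0e and also HTSeq 0.12.4, without its role. The deposited file holds raw counts per gene symbol, not normalised. Here, genes had to exceed a mean count of 4 in the 8 libraries, the 15% with the lowest variance of TMM-scaled log2 CPM (prior count 2) were removed, and the groups were compared with edgeR 4.0.16 (TMM, quasi-likelihood test, R 4.3.3). DEGs had a Benjamini-Hochberg adjusted p (FDR) under 0.05 with a fold change of 1.5 or more. The study names both filters but not the scale of the variance; TMM-scaled log2 CPM was settled on after the DEG counts on this and the unscaled scale had been seen, because it gave the count of an earlier analysis of these data. The log2FC is non-addicted over MA24. List members were counted without the variance filter, over all 12640 genes, and their unadjusted p-values and SEs come from that fit where a gene is not a DEG. Members and lists were chosen with earlier results of these data known. Named genes were the 10 largest rises and falls among DEGs with groups apart and a mean count of at least 50, list members that were DEGs, up to 4 members per list described by unadjusted p, the study's key genes and markers; others are named as chosen after their values were seen. Alternatives were DESeq2 1.42.0, the likelihood ratio test, RLE factors, other filters, all 3 groups in the fit and each rat left out; the variance filter on unscaled log2 CPM or raw counts and the ending of the rat number as a term were added after the data were seen. The fit was tested on simulated counts. Promoters were matched by symbol, since the counts are on another build than GRCr8. Some genes that entered the counts are not reported here.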

Additional observations from a re-analysis of the deposited data

Results flagged for a closer look

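In 10 of 196 groups of 4 rats examined (49 DEGs and 49 lists, in non-addicted and in MA24 rats) 1 rat was far from the other 3 by Dixon's ratio, the gap to the nearest rat over the range, which passed its 95% limit for 4 samples. Chance alone flags about 1 in 20 groups, which is 9.8 of 196.

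Among DEGs, non-addicted rat 13 had a *Rasal1* level of 4.02 log2 CPM against 4.86 to 4.93 in the others (ratio 0.926), and non-addicted rat 9 a *Slc22a8* level of 3.47 against 3.87 to 3.93 (0.856). MA24 rat 16N had 1.40 against 0.29 to 0.43 for *Clca1* (0.88) and 5.50 against 5.19 to 5.24 for *Egfl7* (0.853). With all rats *Rasal1* had a log2FC of 0.79 (adjusted p = 0.0363, edgeR). For *Slc22a8*, *Clca1* and *Egfl7* the group difference with all rats is given above.

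Among lists, scored as mean centred log2 CPM, non-addicted rat 11 had 0.94 against -0.11 to -0.03 for thalamus, hypothalamus and septum (0.921), 0.41 against -0.01 to 0.04 for heat shock and ER stress (0.897) and -0.17 against 0.06 to 0.09 for direct pathway neurons (0.891). Non-addicted rat 9 had -0.14 against 0.05 to 0.08 for indirect pathway neurons (0.866). MA24 rat 14N had -0.48 against 0.14 to 0.19 for cortical excitatory neurons (0.924), and MA24 rat 9N had -0.14 against 0.18 to 0.20 for fibroblast and matrix genes (0.95).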

How the results depend on the processing

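No paired analysis was possible because the groups share no rat numbers. The 49 DEGs became 0 without the variance filter, 0 with that filter on raw counts and 16 with it on unscaled log2 CPM (these scales, and the TMM-scaled one reported, chosen after seeing the data), 10 without filters, 126 by DESeq2, 163 by the likelihood ratio test, and 0 with all 3 groups in the fit; without any 1 rat they were 0 to 187. With the ending of the rat number as a term, likewise an added choice, 0 genes were DEGs, and the members at an unadjusted p below 0.05 were 7 for endothelial, 7 for pericyte, 0 for ependymal cilia, 1 for niche, 0 for myelin, 5 for ribosomal, 0 for oxidative phosphorylation, 1 for GABA and 1 for postsynaptic genes. For the chaperones that fit gave 11 of 27, against 12 as reported. In that fit the log2FC reversed for 14 DEGs, among them *Calcr* (-1.41), *RGD1560608* (-0.75), *Zim1* (-0.62), *Vwa5b1* (-0.38), *Dnah1* (-0.37), *Hap1* (-0.25), *Enkur* (-0.21), *Rsph1* (-0.12), *Vsnl1* (-0.10), *Dgkg* (-0.03), *Dnali1* (-0.03), *Prc1* (-0.01) and *Tp73* (-0.01); there were no other reversals among 877 values of the 49 DEGs, and 487 missed a DEG limit. The cause was not tested. The MA12 rats alone set the term, so the counts in that fit could fall without a smaller log2FC. Without any 1 rat the list counts were 13 to 21 for endothelial, 8 to 12 for pericyte, 10 to 14 for ependymal cilia, 6 to 8 for niche, 11 to 16 for myelin, 5 to 37 for ribosomal, 6 to 24 for oxidative phosphorylation, 10 to 13 for GABA and 5 to 15 for postsynaptic genes. For the chaperones the count was 9 to 14. Depth was at least 19043710 counts a library in the non-addicted and MA24 rats, and MA12 rat 7N had 17908962. With 4 rats a group, every test is limited.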
